A study of Mus musculus with 6 samples.

Results

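The ceramide synthase genes Cers2, Cers3, Cers4, Cers5 and Cers6 and the fatty acid elongase genes Elovl1, Elovl4, Elovl5, Elovl6 and Elovl7 were taken by gene name from the deposited tables, where these 10 genes each matched 1 of 55849 rows. The 6 RNA-seq libraries come from descending colon at 12 weeks of age, with 3 wild-type C57BL/6 and 3 Muc2-/- replicates; the labels name no treatment. The Muc2 protein is the main building block of colonic mucus, and the labels do not describe the mutated allele, the sex or how many animals each library holds. The p-values therefore measure the spread between these libraries, which may be technical. The series title couples sphingolipid metabolism to the epithelial barrier in colitis, and the comparison asks whether transcripts that set the acyl chain of ceramide differ in the mutant colon.

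Ceramide is a sphingoid base joined to a fatty acid, and each ceramide synthase accepts fatty acyl-CoAs of certain chain lengths. Cers5 and Cers6 favour the long palmitoyl chain, Cers4 the somewhat longer stearoyl and arachidoyl chains, Cers2 very long chains and Cers3 ultra-long chains. The elongases catalyse the rate-limiting condensation step that lengthens a fatty acyl-CoA: Elovl6 extends palmitoyl-CoA, Elovl7 extends long chains further, Elovl1 makes the saturated and monounsaturated very long chains that Cers2 uses, Elovl4 makes ultra-long chains, and Elovl5 acts on polyunsaturated chains. In the gut, sphingolipids are abundant in the apical membrane of the absorptive epithelium.

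Total counts ran from 16395432 to 20336459 per library, and 16107 genes had enough counts for the test, 9 of the 10 genes among them. Muc2 itself had 2480, 6977 and 2629 CPM (counts scaled to a common library size) in wild-type 1, 2 and 3, against 757, 1021 and 942 CPM in Muc2-/- 1, 2 and 3. All 3 mutant libraries were lower, and since the mutated stretch of the gene is not described this is only a partial check of the genotype. Sample titles mention crypts while the protocols describe tissue of the colon, and smooth muscle markers were present in every library. Their summed level was 6019 to 21396 CPM in wild-type and 2568 to 4599 CPM in Muc2-/-, and 10 of 10 had a negative log2 fold change (0 called by edgeR, 9 by DESeq2). In this bulk RNA fewer cells of a type and less RNA per cell cannot be told apart. Muc2-/- 2 stood apart from the other libraries, with 1.04% of its counts from mitochondrially encoded genes against 3.30% to 8.98% elsewhere. Across genes, a library's deviation from the mean of all 6 had a rank correlation with gene length of -0.25 in Muc2-/- 2 and between -0.0014 and 0.16 in the others.

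Among the 9 genes with enough counts for the test, Elovl7 had the smallest p, at 2.25 times the wild-type level in the mutant colon, while the long-chain ceramide synthases had nearly the same level in both groups. None of the 9 tested genes passed an adjusted p under 0.05 in edgeR's quasi-likelihood test, where 0.106% of all 16107 tested genes were called higher in Muc2-/- and 0.0186% lower. The smallest adjusted p among the 9 was 0.103, for Elovl7. Before adjustment 1 gene was higher (Elovl7) and 1 lower (Elovl4) at p under 0.05, against 8.23% and 12.7% of all tested genes. DESeq2 called 1 of the 9, Elovl7, as higher and none as lower, against 4.09% higher and 7.41% lower over all genes it tested. The groups' CPM did not overlap for Elovl7 and Elovl1, 2 of the 9, both with Muc2-/- above; this held for 13.3% of all tested genes with Muc2-/- above and 15.2% with it below. Without the filter on low counts, edgeR and DESeq2 each called 2 of the 10 higher (Elovl7 and Cers3) and 0 lower. Over all genes, edgeR then called 1.43% higher and 3.04% lower, and DESeq2 3.23% higher and 6.59% lower. Cers3 had the smaller adjusted p of the 2 in both fits. The median log2 fold change was 0.09 over the 9 genes and -0.013 over all tested genes.

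**Figure D1:**
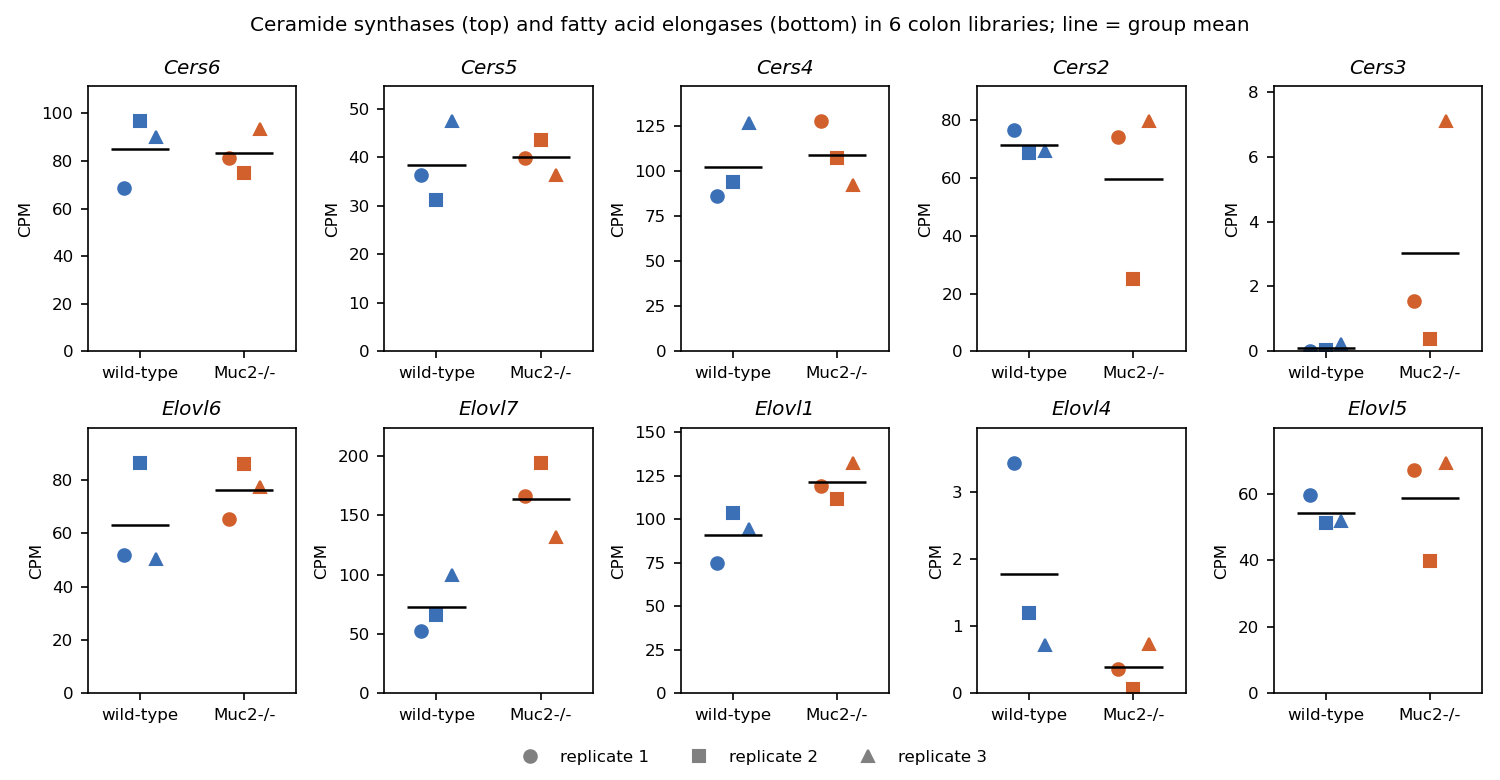
CPM of each ceramide synthase and elongase gene in the 3 wild-type (blue) and 3 Muc2-/- (orange) libraries, each axis starting at 0; the marker shape gives the replicate number and the line the group mean. Elovl7 and Elovl1 lie higher in all 3 Muc2-/- libraries, and Cers2 is low in Muc2-/- 2 alone.

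Positions below are those the count table lists. Cers6, on chromosome 2 from 68691785 to 68944626, had CPM of 68.7, 96.9 and 89.8 in wild-type 1, 2 and 3, against 81.1, 74.9 and 93.5 in Muc2-/- 1, 2 and 3. The mutant values lay inside the wild-type range, and the log2 fold change was -0.034 (SE 0.20, edgeR adjusted p = 0.942). Cers5, on chromosome 15 from 99632762 to 99670766, had CPM of 36.3, 31.2 and 47.5 in wild-type against 39.9, 43.6 and 36.4 in the mutant, again within the wild-type range (log2 fold change 0.059, SE 0.21, edgeR adjusted p = 0.898). These palmitoyl-preferring synthases thus differed by less than the spread between replicates. Cers4, on chromosome 8 from 4543026 to 4581680, had CPM of 86.0, 94.0 and 127 in wild-type against 128, 107 and 92.1 in the mutant. Its groups overlapped almost fully (log2 fold change 0.09, SE 0.22, edgeR adjusted p = 0.848). The sign of the Cers4 and Cers5 values turned negative without composition factors.

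Cers2, the synthase of very long chain ceramides, lies on chromosome 3 from 95222102 to 95230910. It had 76.8, 68.6 and 69.4 CPM in wild-type 1, 2 and 3, against 74.4, 25.0 and 79.9 CPM in Muc2-/- 1, 2 and 3. Only Muc2-/- 2 was low, and the other 5 libraries lay between 68.6 and 79.9 CPM. The log2 fold change was -0.26 (SE 0.39, edgeR adjusted p = 0.742). Without Muc2-/- 2 it was 0.13 (SE 0.13, edgeR adjusted p = 0.599), so the direction over all libraries rests on that library. The part that the low mitochondrial share and the length relation of Muc2-/- 2 have in its Cers2 value was not tested. The span of Cers2 overlaps Setdb1 on the other strand, and the sources used here do not give the strand setting of the counting.

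Cers3, known for the ultra-long chain ceramides of the skin barrier, was near 0 in wild-type colon. It had 0, 1 and 5 counts in wild-type 1, 2 and 3, against 26, 6 and 115 counts in Muc2-/- 1, 2 and 3, or at most 0.238 CPM in wild-type and 1.55, 0.396 and 7.11 CPM in Muc2-/-. The groups did not overlap, but 115 of the 147 mutant counts came from Muc2-/- 3. The ratio of summed counts, scaled to library size, was 29.6 (exact 95% interval 13.3 to 82.1, for counting error only), and without Muc2-/- 3 it was 9.72 (4.01 to 28.4). Cers3 did not pass the filter on low counts. In edgeR without that filter its log2 fold change was 4.81 (SE 1.08, adjusted p = 0.0157, where 1.43% of all genes were called higher), and DESeq2 without the filter gave an adjusted p of 9.56e-04 (3.23% called higher). Without Muc2-/- 3 the unfiltered edgeR log2 fold change was 3.19 (adjusted p = 0.204), and the adjusted p without wild-type 1 was 0.0521, so the call depends on single libraries. Among 8 markers of stratified squamous epithelium, 4 were tested and had a positive log2 fold change. Their summed level was 6.63 to 7.09 CPM in wild-type and 7.26 to 11.6 CPM in Muc2-/-, and Krt4, Krt1 and Trp63 were at 0 counts in all Muc2-/- libraries. Krt13 had 0.554, 0.261 and 0.572 CPM in wild-type against 2.20, 1.45 and 3.28 CPM in Muc2-/- (DESeq2 adjusted p = 0.00632) and was highest in Muc2-/- 3, as was Cers3. The list's summed level was instead highest in Muc2-/- 2, where Cers3 was lowest among the mutant libraries. The part of such cells in the Cers3 value was not tested.

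Elovl7 lies on chromosome 13 from 108350938 to 108422217. It had 52.3, 66.3 and 99.8 CPM in wild-type 1, 2 and 3, against 166, 195 and 132 CPM in Muc2-/- 1, 2 and 3. Every mutant library was above every wild-type library, with means of 72.8 ± 24.4 CPM and 164 ± 31.5 CPM (SD, n = 3 each), a 2.25-fold difference. The log2 fold change was 1.17 (SE 0.28), with an adjusted p of 0.103 in edgeR and 0.00574 in DESeq2. In edgeR it passed the threshold without wild-type 3 (log2 fold change 1.48, adjusted p = 0.0245). That fit called 272 of 16788 tested genes higher and 954 lower, against 17 and 3 of 16107 with all libraries. Elovl7 also passed with no filter on low counts (adjusted p = 0.0221), a call that ended without wild-type 1 (0.110) or Muc2-/- 2 (0.0746).

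Elovl1, whose product supplies very long chains, lies on chromosome 4 from 118285290 to 118290150. It had 74.9, 104 and 94.4 CPM in wild-type against 119, 111 and 132 CPM in Muc2-/-. The groups did not overlap, with means of 91.0 ± 14.7 CPM and 121 ± 10.6 CPM (SD, n = 3 each), and the log2 fold change of 0.41 (SE 0.19) did not pass (edgeR adjusted p = 0.266, DESeq2 adjusted p = 0.208). The span of Elovl1 overlaps that of Cdc20 on the other strand. Neither DESeq2 nor any edgeR fit with a library left out called Elovl1.

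The promoters of Elovl7, Elovl1 and Cers3 are shown because these are the members whose groups did not overlap, each with Muc2-/- above. Each window runs from 250 bases before to 50 bases after a RefSeq start site (GRCm38.p6, plus strand for all 4, written 5′ to 3′). Elovl1 has 2 listed starts. Capitals mark the GC box (GGGCGG, bound by Sp1) and the CCAAT box (bound by NF-Y), each on either strand.
Elovl7, chr13:108214154-108214453: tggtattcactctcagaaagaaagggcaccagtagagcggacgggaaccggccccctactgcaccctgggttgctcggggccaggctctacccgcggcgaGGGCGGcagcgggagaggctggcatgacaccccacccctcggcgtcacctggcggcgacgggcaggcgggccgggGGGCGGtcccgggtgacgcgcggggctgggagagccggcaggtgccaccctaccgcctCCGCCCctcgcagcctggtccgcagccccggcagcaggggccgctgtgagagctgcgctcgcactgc
Elovl1, chr4:118427843-118428142: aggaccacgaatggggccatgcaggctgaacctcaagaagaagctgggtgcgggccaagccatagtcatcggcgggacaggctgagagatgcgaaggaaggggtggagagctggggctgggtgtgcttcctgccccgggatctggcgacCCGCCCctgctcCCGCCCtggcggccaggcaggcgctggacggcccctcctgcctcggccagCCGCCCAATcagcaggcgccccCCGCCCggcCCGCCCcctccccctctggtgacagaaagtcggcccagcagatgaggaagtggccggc
Elovl1, chr4:118429451-118429750: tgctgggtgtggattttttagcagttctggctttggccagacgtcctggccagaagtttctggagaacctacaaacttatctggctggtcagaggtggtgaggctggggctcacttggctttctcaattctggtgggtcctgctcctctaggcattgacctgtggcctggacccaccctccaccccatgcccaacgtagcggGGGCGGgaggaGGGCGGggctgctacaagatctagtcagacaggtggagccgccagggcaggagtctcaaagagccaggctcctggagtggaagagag
Cers3, chr7:66743254-66743553: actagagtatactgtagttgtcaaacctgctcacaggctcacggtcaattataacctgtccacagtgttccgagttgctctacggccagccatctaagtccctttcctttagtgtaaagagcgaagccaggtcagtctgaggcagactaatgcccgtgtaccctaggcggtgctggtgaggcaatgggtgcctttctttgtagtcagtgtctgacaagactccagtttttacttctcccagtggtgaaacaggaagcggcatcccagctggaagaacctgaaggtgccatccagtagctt
The Elovl7 window holds 3 GC boxes, the first Elovl1 window 5 and the second 2, and 35.7% of all 32851 promoter windows hold at least 1. The first Elovl1 window also holds 1 CCAAT box, which shares bases with a GC box, and 37.4% of all windows hold one. G and C made up 74.0% of the Elovl7 window and 70.7% and 59.0% of the Elovl1 windows. The Cers3 window matched neither box. GC boxes were also found in the windows of Cers2 (the first of 2), Cers4, Cers5 and Elovl4. CCAAT boxes were also found in those of Cers2 (the first of 2), Cers6, Elovl4 and Elovl5. Among the windows of all 10 genes, none held TCACNCCAC, a form of the sterol regulatory element bound by SREBP factors (1.24% of all windows), or TGANTCA, the AP-1 site (7.81%), on either strand. The canonical E-box CACGTG was found in the windows of Cers2 (the first of 2), Cers6, Elovl4 and Elovl5 (7.15% of all windows). An NF-kappaB pattern matched 2 times in the Cers4 window (8.46% of all windows hold it). A STAT pattern matched 1 time in the second Cers2 window (8.3%). Such matches describe the letters in these windows and do not show binding, which was not measured.

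Markers of the epithelium, the cells that line the colon, also stood higher in Muc2-/-. Their log2 fold change was positive for 10 of 10 (median 0.77; 0 called by edgeR, Cdh1 and Krt19 called by DESeq2). Their summed level was 13235 to 24918 CPM in wild-type and 30871.5 to 45799.6 CPM in Muc2-/-, and no marker was at 0. Goblet cell markers summed to 2874, 3612 and 17375 CPM in wild-type 1, 2 and 3 and to 17507.5 to 26279.5 CPM in Muc2-/- (DESeq2 called Spink4 higher). Wild-type 3 was thus near the mutant libraries in this list. Absorptive colonocyte markers summed to 5911 to 9716 CPM in wild-type and 6032 to 9877 CPM in Muc2-/-. Their log2 fold change was positive for 3 and negative for 4 of 7 (median -0.12), and DESeq2 called Slc26a3 lower (adjusted p = 0.0427). In both lists edgeR called 0. Set against the mean log2 CPM of the epithelial markers, Elovl7 lay at -4.30, -4.55 and -4.07 in wild-type 1, 2 and 3, against -3.63, -3.81 and -4.10 in Muc2-/- 1, 2 and 3. This scale lowers every gene in Muc2-/- by the 0.74 by which the marker mean differed. On it the groups overlapped for Elovl7, with a difference of 0.46, and also for Cers4, Elovl1, Elovl5 and Elovl6. They did not overlap for Cers2 (difference -1.18), Cers5 (-0.67) and Cers6 (-0.77), each with Muc2-/- lower. Cers2 lay at -4.79, -6.76 and -4.82 in Muc2-/- 1, 2 and 3, so the size of its difference leans on Muc2-/- 2. The share of all genes without overlap on this scale was not computed, so no result about the members is read from it. The part of epithelial content in these values was not tested.

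**Figure D2:**
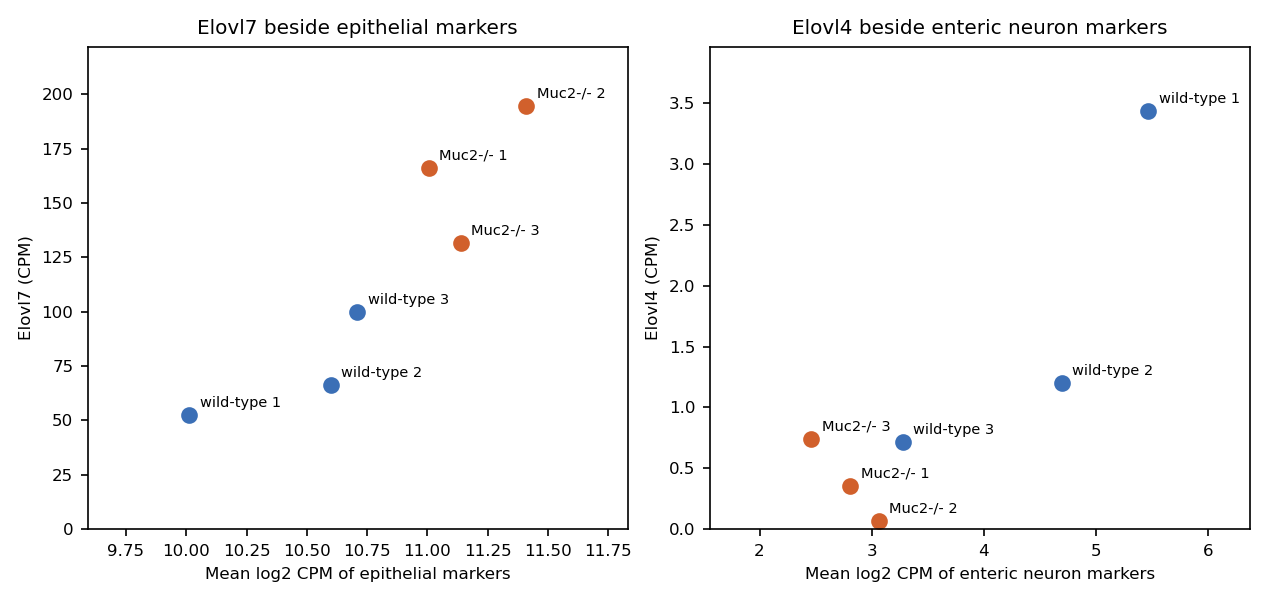
Left, Elovl7 (CPM) against the mean log2 CPM of 10 epithelial markers; right, Elovl4 (CPM) against the mean log2 CPM of 6 enteric neuron markers, 1 point per library. The 3 Muc2-/- libraries (orange) have the highest epithelial marker levels and the 3 lowest neuron marker levels.

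Elovl6, the palmitoyl-CoA elongase and a textbook target of the lipogenic factor SREBP-1c, lies on chromosome 3 from 129326004 to 129432144. It had 52.0, 86.4 and 50.4 CPM in wild-type against 65.3, 85.9 and 77.2 CPM in Muc2-/- (log2 fold change 0.27, SE 0.25, edgeR adjusted p = 0.569). Wild-type 2 was above the highest mutant library, and the other wild-type libraries were below all 3. Elovl5, on chromosome 9 from 77824646 to 77891801, had 59.7, 51.3 and 51.8 CPM in wild-type against 67.1, 39.9 and 69.3 CPM in Muc2-/- (log2 fold change 0.12, SE 0.24, edgeR adjusted p = 0.822). As for Cers2, the lowest library was Muc2-/- 2, while the other mutant libraries were above wild-type. Without composition factors the Elovl5 value was -0.059.

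Elovl4, the ultra-long chain elongase of retina, brain and skin, was scarce in every library. It lies on chromosome 9 from 83660745 to 83688330 and had 62, 23 and 15 counts in wild-type 1, 2 and 3, against 6, 1 and 12 counts in Muc2-/- 1, 2 and 3. In CPM this was 3.43, 1.2 and 0.715 against 0.357, 0.0661 and 0.742, so Muc2-/- 3 was level with wild-type 3. Muc2-/- 1 and 2 were below the minimum count of 10, so Elovl4 passed the filter on low counts mainly through wild-type. The log2 fold change was -2.17 (SE 0.89, edgeR adjusted p = 0.221, DESeq2 adjusted p = 0.135). It was -1.28 without wild-type 1 and -0.80 with Muc2-/- 2 also left out. All 6 enteric neuron markers had a negative log2 fold change (median -2.14; 0 called by edgeR, 5 by DESeq2). Their summed level was 289, 177 and 63.7 CPM at its highest, median and lowest in wild-type and 43.6 to 58.6 CPM in Muc2-/-, with no marker at 0. Within wild-type, Elovl4 had the same order of libraries as the mean log2 CPM of these markers (5.47, 4.69 and 3.28), and also of smooth muscle (10.19, 9.44 and 8.38), enteric glia (3.33, 2.56 and 1.48) and fibroblast markers (7.35, 6.71 and 6.28). Immune cell markers (4.09, 2.98 and 2.91), stratified squamous markers (0.366, 0.236 and 0.230) and the mitochondrial share (8.98%, 5.30% and 3.49%) had this wild-type order too. Within Muc2-/- Elovl4 had the order of none of the first 4 lists. It had there the order of the immune cell markers (4.44, 3.83 and 4.87 in Muc2-/- 1, 2 and 3). Between the groups the immune markers went the other way, summing to 201 to 276 CPM in wild-type and 840 to 1135 CPM in Muc2-/-. Of 6 tested immune markers 5 had a positive log2 fold change, and edgeR called 1, Jchain, higher. An order of 3 libraries does not tell these lists apart. The part of these cell types in the Elovl4 value was not tested.

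**Figure D3:**
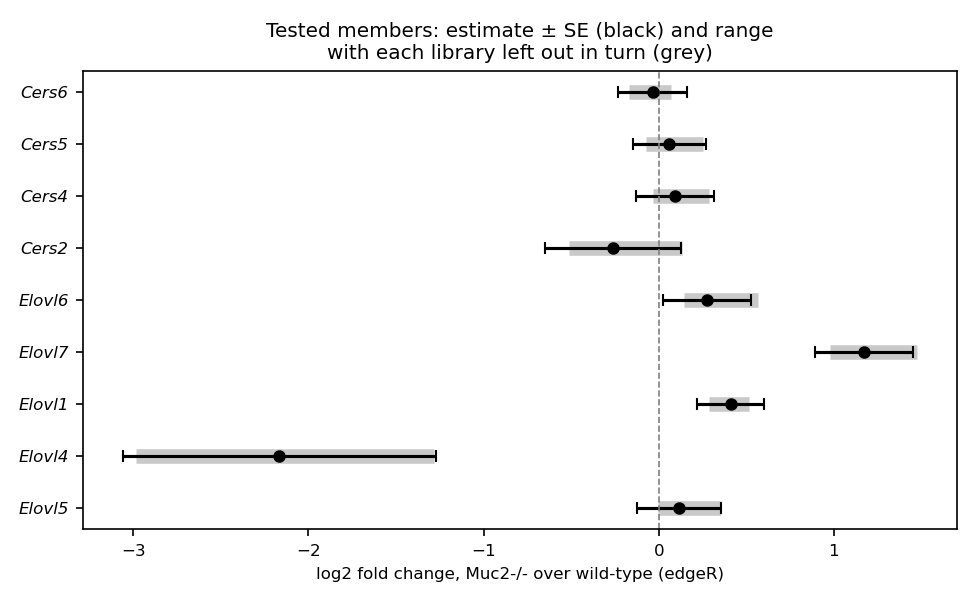
Log2 fold change of Muc2-/- over wild-type for the 9 tested genes (edgeR; black point with SE) and its range when each library is left out in turn (grey bar). Elovl7 lies at 1.17 and stays between 0.98 and 1.48, Elovl4 has the widest range, and 4 ceramide synthases lie around 0.

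The remaining family genes were nearly absent. Cers1, the stearoyl-preferring synthase of brain and skeletal muscle, had 44, 17 and 7 counts in wild-type 1, 2 and 3, against 2, 0 and 1 in the mutant. The ratio of wild-type to mutant summed counts, scaled to library size, was 18.7 (95% counting interval 6.14 to 93.1). Without a filter edgeR gave an adjusted p of 0.0417 and DESeq2 of 0.0154. The wild-type order of Cers1 counts was that of the neuron, smooth muscle, glia, fibroblast, immune and squamous markers and of the mitochondrial share. Their part was not tested. Its span overlaps Upf1 on the other strand and Gdf1 on the same strand, so its reads cannot be assigned with certainty. Elovl2, which extends polyunsaturated chains beyond those of Elovl5, had 26 counts over wild-type and 3 over Muc2-/- (ratio 7.16, interval 2.20 to 37.0). Elovl3 had 0 counts in every library, which allows up to 0.0515 CPM over the wild-type and 0.0624 CPM over the Muc2-/- libraries. None of these 3 genes passed the filter on low counts.

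Levels of different genes were compared as FPKM, which divides by the gene length listed in the table. Over the 6 libraries, FPKM was 17.8 ± 5.44 for Cers2, 11.05 ± 1.82 for Cers5, 9.46 ± 1.28 for Cers6, 8.61 ± 1.57 for Cers4 and 0.479 ± 0.855 for Cers3 (SD, n = 6). Cers5 was above Cers4 in every library, while the place of Cers6 relative to each of them varied by library. Among the elongases FPKM was 38.8 ± 7.63 for Elovl1, 29.6 ± 14.3 for Elovl7, 15.99 ± 3.05 for Elovl5, 10.8 ± 2.55 for Elovl6 and 0.353 ± 0.387 for Elovl4 (SD, n = 6). These means join both genotypes, and Elovl7 FPKM was 18.1 ± 6.51 in wild-type and 41.1 ± 8.26 in Muc2-/- (SD, n = 3 each). The order varied by library, since Elovl5 (16.4 FPKM) was above Elovl7 (12.6 FPKM) in wild-type 1 and Elovl7 (49.4 FPKM) above Elovl1 (41.7 FPKM) in Muc2-/- 2. The same order of the means was found with CPM per kilobase of the longest coding transcript, a choice made after seeing the data. The listed length of Cers4 is 12264 bases and its longest coding transcript 9475 bases, with a coding transcript of 387 bases as the shortest, so its level per length depends on the transcript used.

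Summed FPKM of the 5 elongases was 64.7, 81.6 and 83.7 in wild-type 1, 2 and 3, against 114, 116 and 114 in Muc2-/- 1, 2 and 3. The groups did not overlap in this sum, which includes Elovl7 and Elovl1, whose own groups did not overlap. FPKM of Elovl4, Elovl5 and Elovl6 each overlapped between the groups. Elovl7 held 23.2% ± 6.06 of the sum in wild-type and 35.9% ± 6.78 in Muc2-/- (SD, n = 3 each). These shares overlapped, since wild-type 3 had 30.2% and Muc2-/- 3 had 28.9%. Elovl1 held 43.0% ± 2.46 and 39.0% ± 3.58, Elovl5 20.3% ± 4.44 and 14.7% ± 4.10. The Elovl7 to Elovl6 ratio in FPKM was 1.61, 1.23 and 3.17 in wild-type against 4.08, 3.63 and 2.73 in Muc2-/-.

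Summed FPKM of the 5 ceramide synthases was 44.5, 45.3 and 53.7 in wild-type 1, 2 and 3, against 51.2, 37.1 and 52.4 in Muc2-/- 1, 2 and 3, with overlap. Cers2 held 45.5% of that sum at most and 35.7% at least in wild-type, and 41.6% and 18.7% in Muc2-/-. The ratio of Cers2 to the sum of Cers5 and Cers6 in FPKM, a contrast of very long chain with palmitoyl preference, was 1.16, 0.947 and 0.802 in wild-type against 0.992, 0.327 and 1.04 in Muc2-/-. Apart from Muc2-/- 2 the mutant libraries lay within the wild-type range. These shares and ratios are descriptions with no test.

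**Figure D4:**
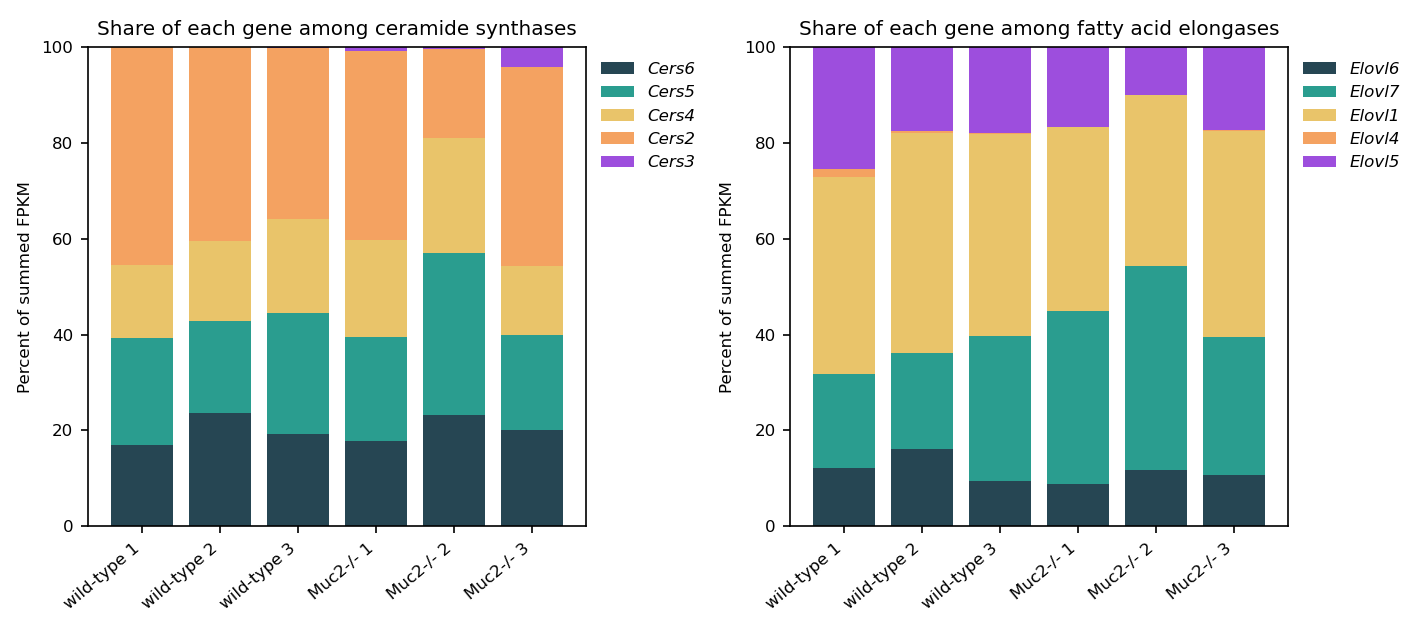
Percent of the summed FPKM of 5 ceramide synthases (left) and 5 elongases (right) held by each gene, 1 bar per library. The Cers2 part is 18.7% in Muc2-/- 2, and the Elovl7 part runs from 19.5% to 30.2% in wild-type and from 28.9% to 42.5% in Muc2-/-.

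Of the other steps of the elongation cycle, 6 of 7 genes were tested, and edgeR called 0 (1 higher and 0 lower at an unadjusted p under 0.05). DESeq2 called 1, Hsd17b12, the ketoacyl-CoA reductase that acts after every elongase. It had 82.3, 91.5 and 102 CPM in wild-type against 141, 119 and 151 CPM in Muc2-/- with no overlap (log2 fold change 0.58, SE 0.18, edgeR adjusted p = 0.141, DESeq2 adjusted p = 0.0382), and DESeq2 without a filter did not call it. Tecr, the enoyl reductase that closes the cycle, stood at 132 ± 17.0 CPM and 120 ± 9.87 CPM (SD, n = 3 each). The list's median log2 fold change was -0.20.

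Of 14 genes for fatty acid synthesis and acyl-CoA supply 13 were tested, and edgeR called 0 (unadjusted, Acsl4 and Acsl5 were higher and Acsl6 and Slc27a1 lower; median -0.026). DESeq2 called Acsl5 higher, and Acsl6 and Slc27a1 lower. Acsl5, an acyl-CoA synthetase of the gut, had 90.2, 99.9 and 120 CPM in wild-type against 155, 173 and 170 CPM in Muc2-/- with no overlap (log2 fold change 0.69, SE 0.19, edgeR adjusted p = 0.110, DESeq2 adjusted p = 0.0138). Acsl6, an acyl-CoA synthetase best known from brain, had 7.20, 3.39 and 1.81 CPM and then 1.07, 0.661 and 0.371 CPM (log2 fold change -2.54, edgeR adjusted p = 0.106, DESeq2 adjusted p = 0.00554). Its wild-type order of libraries was that of the smooth muscle, glia, fibroblast, neuron, immune and squamous markers and of the mitochondrial share. Its order within Muc2-/- was that of the first 3 of these lists but not of the others. Their part in it was not tested. Slc27a1, a fatty acid transport protein, had 28.2 ± 3.58 CPM and 14.7 ± 4.58 CPM (log2 fold change -0.94, DESeq2 adjusted p = 0.0262). Dbi, the acyl-CoA binding protein, had 238 ± 66.3 CPM and 439 ± 236 CPM, and Acly, which makes cytosolic acetyl-CoA, had 279 ± 157 CPM and 196 ± 81.0 CPM (SD, n = 3 each). The levels of both overlapped between the groups.

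No gene was called by edgeR or DESeq2 among 7 tested desaturases and hydroxylase (0 and 0 unadjusted; median 0.026), 10 sphingoid base and dihydroceramide genes (3 higher, namely Degs2, Sptlc2 and Ormdl1, and 0 lower unadjusted; median 0.28), 11 ceramide-using enzymes (0 and 0; median 0.18) or 10 lipogenic transcription factors (0 higher and 1 lower, Mlxipl; median 0.13). Over all tested genes, 8.23% were higher and 12.7% lower at an unadjusted p under 0.05 in edgeR. Scd2, a stearoyl-CoA desaturase, had 687, 909 and 1689 CPM in wild-type against 1778, 1268 and 1585 CPM in Muc2-/-. Fads2, a polyunsaturated fatty acid desaturase, had 243 ± 121 CPM and 219 ± 75.3 CPM. Sptlc2, the catalytic subunit of serine palmitoyltransferase, which makes the base that ceramide synthases acylate, had 125, 174 and 225 CPM and then 272, 240 and 296 CPM (edgeR adjusted p = 0.212). Degs2, which hydroxylates and desaturates dihydroceramide, had 111, 175 and 171 CPM and then 202, 541 and 222 CPM (edgeR adjusted p = 0.190). Both had no overlap of the groups, with Muc2-/- above. Of the 10 tested genes in their list, 3 had no overlap with Muc2-/- above and 1 with it below. Over all tested genes these shares were 13.3% and 15.2%. Asah1, the acid ceramidase, had 125 ± 30.6 CPM and 186 ± 75.4 CPM, and Ugcg, which glucosylates ceramide, had 134 ± 16.3 CPM and 159 ± 12.2 CPM. Srebf1, the gene of SREBP-1, had 102 ± 22.0 CPM and 112 ± 11.4 CPM, and Mlx, a dimer partner of the carbohydrate response factor, had 92.8 ± 30.6 CPM and 130 ± 26.0 CPM (SD, n = 3 each, wild-type first).

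**Figure D5:**
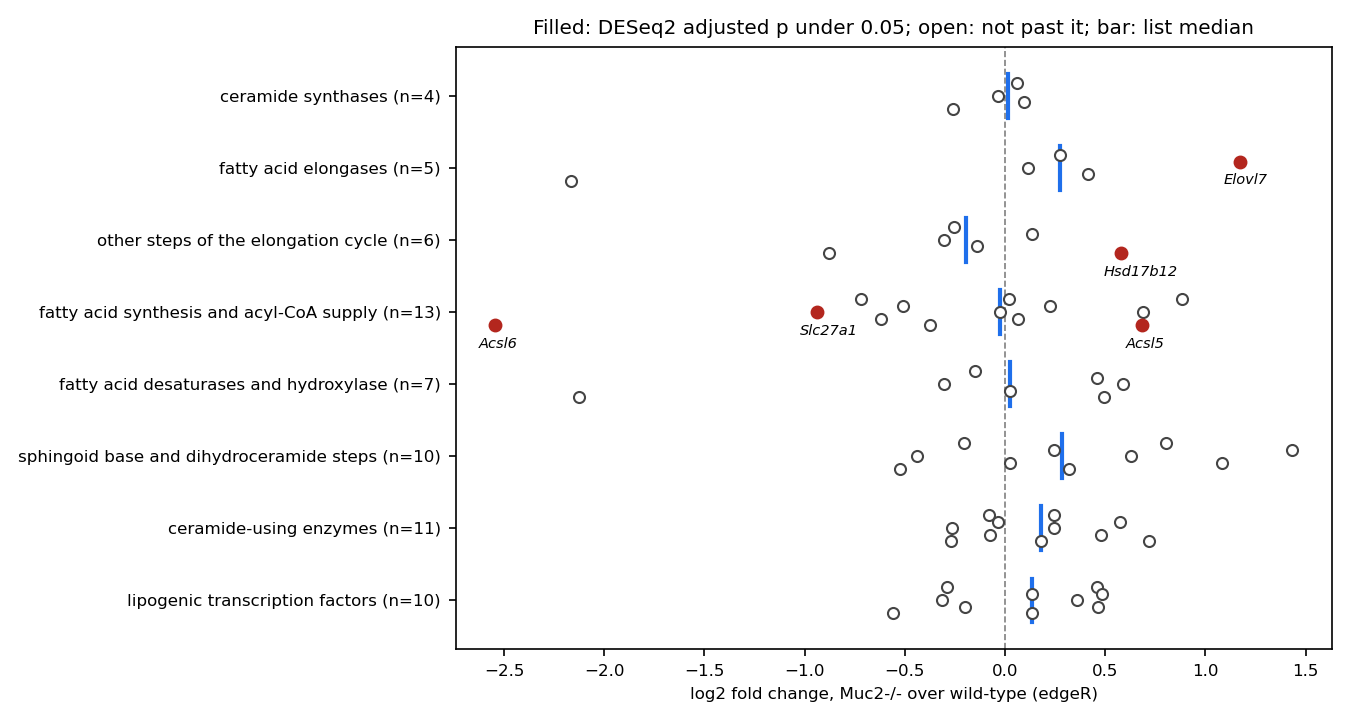
Log2 fold change (edgeR) of the tested genes in 8 lists around the ceramide acyl chain, 1 point per gene, with the list median as a bar. Elovl7, Hsd17b12 and Acsl5 lie above 0 and Acsl6 and Slc27a1 below 0 among the genes that DESeq2 called, while edgeR called none of the genes shown.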

How the data were processed

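The authors deposited raw counts per gene, per the file headers, and FPKM, which a check showed to be each count over its gene's listed length and over a library total scaled by the DESeq2 median-of-ratios factor. The submitters' processing notes list mm10, featureCounts 1.5.0-p3, HISAT2 2.0.5, DESeq2 1.20.0 and StringTie 1.3.3b and give no roles. The deposited coordinates are not those of GRCm38, since all 10 genes have another position but the same width in GENCODE M21, and are printed as given. Gene lengths in bases are the authors' deposited values.

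The test on counts was that of edgeR 4.0.16, run in R 4.3.3 (TMM factors, minimum count 10 and total 15, quasi-likelihood fit with genotype alone, Benjamini-Hochberg over all tested genes at 0.05). CPM use the TMM-scaled library size, and an SE is the log2 fold change over the square root of F. Mean log2 CPM used a prior count of 2. Groups and replicate numbers came from the sample titles. Replicates differed by 26.8 to 167 chi-square per degree of freedom and were kept apart. Alternatives were RLE, upper-quartile or no factors, no filter on low counts, a filter of at least 50 counts with 1 CPM in 3 libraries, limma-voom (limma 3.58.1), DESeq2 1.42.0, limma on log2(FPKM + 1) and log2(FPKM + 0.1), a replicate block, libraries left out, and an unadjusted p. DESeq2 with no filter, the transcript lengths, no filter with libraries left out and the Cers3 count ratio without Muc2-/- 3 were added after seeing the data. The edgeR and DESeq2 fits were also run on counts simulated with the dispersions of these data. The outcome is not given here and is not used as support. Intervals (exact conditional binomial, 95%) and limits from 0 counts (3 counts) cover counting error only.

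The members and lists were chosen with earlier results of these data known. Genes were named by rule: all 10 members, the 3 other family genes, Muc2, and of each pathway list the genes called by edgeR or DESeq2 and, where edgeR called none, the 2 with the highest mean CPM. Outside this rule, Acsl4, Ormdl1 and Mlxipl were named for an unadjusted edgeR p under 0.05. Of the marker lists only those that bear on a member are reported, and their named genes were chosen after their values were seen. Promoter windows come from RefSeq (GRCm38.p6), and 10 of 10 symbols matched.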

Additional observations from a re-analysis of the deposited data

How the results depend on the processing

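edgeR called 0 of the 9 tested members higher and 0 lower, and RLE, upper-quartile or no factors, the stricter filter, limma-voom and limma on FPKM also called 0 in each direction. The count of higher members was 1 in DESeq2 and at an unadjusted p (Elovl7), and 2 without a filter in edgeR and in DESeq2 (Elovl7 and Cers3). With single libraries left out it ran from 0 to 1 higher, the 1 being Elovl7 without wild-type 3, and stayed at 0 lower. Without wild-type 3, 272 of all 16788 tested genes were called higher and 954 lower. Leaving out both wild-type 1 and Muc2-/- 2 called 0. The count of lower members was 1 at an unadjusted p (Elovl4). Elovl1, Elovl4, Elovl6 and Elovl7 kept their direction in every alternative that tested them. Elovl7 ran from 0.84 to 1.48, with edgeR, DESeq2 and limma adjusted p from 0.00574 to 0.290, past 0.05 in 4 of 19 alternatives.

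The 5 other tested members changed sign. With single libraries left out, log2 fold changes ran from -0.51 to 0.13 for Cers2, -0.031 to 0.29 for Cers4, -0.071 to 0.25 for Cers5, -0.17 to 0.067 for Cers6 and -0.0044 to 0.35 for Elovl5. Without composition factors, which moved the median of all tested genes from -0.013 to -0.20, they were -0.087 for Cers4, -0.13 for Cers5 and -0.059 for Elovl5. Upper-quartile factors gave -0.0093 for Cers5. Without wild-type 1 and Muc2-/- 2 together they were 0.16 for Cers2, -0.0082 for Cers4 and -0.048 for Cers5. The cause was not tested. Over all genes the calls ran from 0 to 659 higher (0 without wild-type 2, 17 with all libraries, 659 in DESeq2) and from 0 to 1253 lower (3 with all libraries, 1253 in DESeq2 without a filter) at an adjusted p.

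Replicates of the same number deviated together with a correlation across genes of 0.094, 0.28 and 0.061. Between replicates of different numbers it ran from -0.25 to 0.075. These values do not settle whether the numbers are pairs, and the main fit did not take them as such. With the replicate number as a block, 0 members were called in either direction (Elovl7 log2 fold change 1.21, edgeR adjusted p = 0.0585), against 225 higher and 448 lower over all genes. Cers1 was lower without a filter in both tools and without wild-type 3, and Acsl6 also with the replicate block. Genes of few counts, here Cers3, Elovl4, Cers1 and Elovl2, are limited by depth.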
